A study of Rattus norvegicus with 12 samples.

Results

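The subunits of the oxidative phosphorylation machinery were followed in the renal cortex of 12 male rats dosed with water or with TBA, which is tert-butyl alcohol, a compound used as a solvent and formed in the body from certain fuel additives. Oxidative phosphorylation is carried out in the inner mitochondrial membrane. Complexes I and II take electrons from NADH and succinate, complex III passes them to cytochrome c, complex IV hands them to oxygen, and complex V, the ATP synthase, uses the resulting proton gradient to make ATP. The proximal tubule, which fills most of the renal cortex and reabsorbs most of the filtered sodium, glucose and phosphate, depends on this pathway for its energy.

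Members were taken by gene symbol: the nuclear-encoded subunit families Nduf, Sdh, Uqcr, Cox4 to Cox8 and Atp5, with the Ndufaf assembly factors left out. The arrays carried 131 probes for 76 such symbols, and 75 were kept because, in 1 group or more, all 3 arrays had the probe well above background. All 75 were in fact well above background on all 12 arrays. The gene not kept was Cox8c, a testis form of a complex IV subunit, whose probes were not well above background on any array. The 75 genes were 75 of 29603 features tested, of which 11689 had a symbol. Complex I had 31 members, complex II had 4, complex III had 8, complex IV had 17 with Ndufa4 counted there, and complex V had 15. Among the complex IV members 1, Cox6c-ps1, is a pseudogene that the symbol rule took in. It is counted with the subunits throughout. The 13 subunits encoded by the mitochondrial genome were not analysed here.

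The animals were Sprague-Dawley (Crl:CD(SD)) rats bought at 5 weeks of age. Vehicle rats received water and TBA rats received 1000 mg/kg/day for 4 weeks, and all were bled 24 h after the last dose under either a 4:1 mixture of CO2 and O2 or isoflurane. This gave 4 groups of 3 rats: vehicle CO2-O2, TBA CO2-O2, vehicle isoflurane and TBA isoflurane. Each rat's cortex RNA went on its own one-colour Agilent array, and the labels call the rats of a group biological replicates.

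An array had 61.6% to 71.0% of its probes, controls aside, well above background, and no probe was saturated. Arrays of a group correlated at 0.989 to 0.994. Of the 12 fixed markers of proximal tubule segments S1 and S2, all 12 were well above background on every array, as were all 10 of segment S3. The 9 markers kept for each of the thick ascending limb, principal cells and intercalated cells were so too. Detection alone therefore cannot tell cortex from other parts of the kidney. Levels below are log2 signals minus the 75th percentile of the same array unless quantile scaling, which gives all arrays the same distribution, is named. Changes are log2 differences with the standard error (SE) from a limma fit over all features, with 3 rats in each group, and adjusted p-values (Benjamini-Hochberg) refer to that fit.

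RefSeq promoter sequences (build GRCr8, 250 bases before to 50 after the gene start) matched 65 of the 75 subunits. They were searched on both strands for the NRF1 site with its 1 free middle base, for ACTTCCGG, an ETS site bound by GABP, and for AAGATGGC, a YY1 site; these factors are known regulators of respiratory chain genes. The NRF1 letters were in 12 of the 65 (18.5%), against 8.68% of the 10025 promoters of tested genes in the table and 4.25% of all 33469 in the table. The YY1 letters were in 12 (18.5%) against 4.84% and 3.17%, and the ETS letters in 7 (10.8%) against 7.56% and 3.81%. At least 1 of the 3 was in 27 promoters and 2 different ones were in 4. A match describes letters in a window and no binding was measured.

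The 120 bases upstream of the start are shown for 5 subunits whose 3 TBA arrays all lay above the 3 vehicle arrays under both anesthetics, with motif letters in capitals. Ndufa5 (chr4:53971236-53971355, minus strand) holds the NRF1 letters, Uqcrh (chr5:134790883-134791002, minus strand) and Cox5b (chr9:46417717-46417836, plus strand) the ETS letters, in Cox5b read from the opposite strand, and Atp5pf (chr11:37375102-37375221, minus strand) the YY1 letters. Cox4i1 (chr19:65630263-65630382, plus strand) holds none of the 3 in its whole window. Each is written 5′ to 3′ along its gene.
Ndufa5: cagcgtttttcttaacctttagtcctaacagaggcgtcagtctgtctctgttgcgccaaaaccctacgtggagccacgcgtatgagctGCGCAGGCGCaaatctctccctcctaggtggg
Uqcrh: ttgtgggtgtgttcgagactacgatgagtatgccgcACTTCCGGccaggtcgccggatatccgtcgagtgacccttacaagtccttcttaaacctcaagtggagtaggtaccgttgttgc
Cox5b: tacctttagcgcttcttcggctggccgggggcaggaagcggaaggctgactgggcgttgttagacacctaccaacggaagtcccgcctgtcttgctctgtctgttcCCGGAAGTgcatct
Atp5pf: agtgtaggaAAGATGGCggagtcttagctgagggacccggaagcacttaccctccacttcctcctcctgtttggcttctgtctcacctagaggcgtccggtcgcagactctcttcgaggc
Cox4i1: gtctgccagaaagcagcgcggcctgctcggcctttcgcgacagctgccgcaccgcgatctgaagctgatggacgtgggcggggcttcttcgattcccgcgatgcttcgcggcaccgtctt

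After TBA, most subunits were slightly higher than in vehicle rats when arrays were scaled to their 75th percentile, and this direction was mostly lost under quantile scaling. Averaged over both anesthetics, 71 of 75 subunits were higher and 4 lower, with a median of 0.11, against a median of 0.01 and 53.8% higher over all features. Under quantile scaling 41 were higher and 34 lower, with a median of 0.0055, against 50.6% of all features higher. An unadjusted p under 0.05 was reached by 38 subunits, all higher, against 12.2% of all features in that direction. Under quantile scaling it was reached by 5 higher subunits, against 10.5%, and 2 lower ones, against 7.8%. In the averaged comparison 2 of the 75 passed the test, both higher: the subunit Cox4i1 and the pseudogene Cox6c-ps1. Of all features 1.87% passed (555 of 29603) and 1.38% passed and were higher, so the share of subunits called, 2.67%, was near the background. Under quantile scaling 1 of the 75 passed, the pseudogene Cox6c-ps1, against 1.27% of all features.

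The median over the 75 subunits was taken on each array. It was 6.21, 6.20 and 6.24 in the vehicle CO2-O2 rats and 6.30, 6.26 and 6.34 in the TBA CO2-O2 rats. It was 6.12, 6.24 and 6.11 in the vehicle isoflurane rats and 6.41, 6.31 and 6.25 in the TBA isoflurane rats. Every TBA array lay above every vehicle array killed under the same gas. Under quantile scaling the vehicle CO2-O2 arrays spanned 15.77 to 15.84 and the TBA CO2-O2 arrays 15.81 to 15.87. The isoflurane groups spanned 15.78 to 15.85 and 15.80 to 15.84, so under that scaling the groups overlapped in both arms. The subunits' probes were bright: 65 of 75 had a mean signal above the 90th percentile of all features, with a median rank at the 97.7th percentile, which describes the probes and not transcript abundance. The upper part of the signal distribution also differed between groups, since the 99th percentile stood 6.51 to 6.57 above the 75th on the vehicle isoflurane arrays and 6.62 to 6.75 above it on the TBA isoflurane arrays (log2). The same distance was 6.57 to 6.59 in vehicle CO2-O2 rats and 6.62 to 6.66 in TBA CO2-O2 rats. The part of this in the subunits' shift was not tested.

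**Figure D1:**
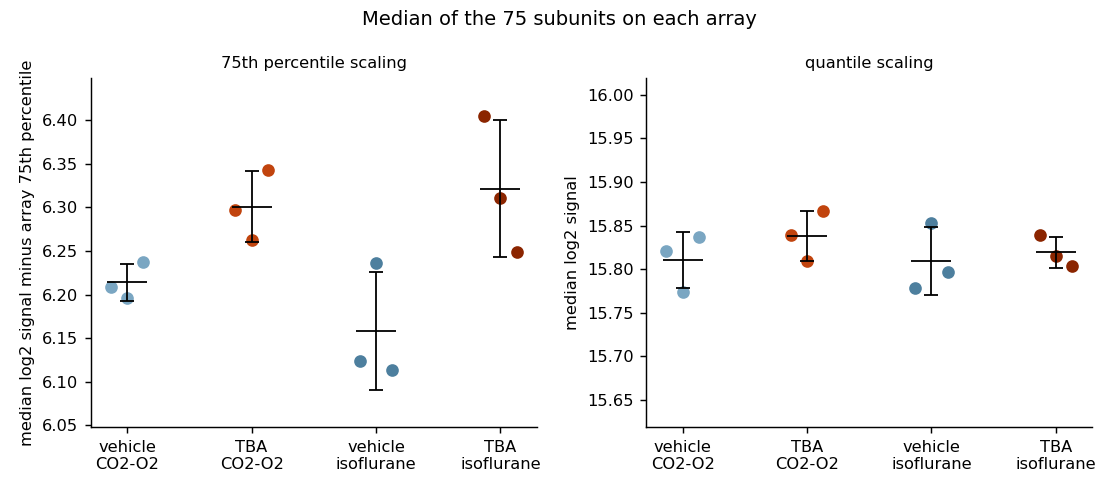
Median log2 level of the 75 subunits on each array (points), with the mean and SD of each group of 3 rats (bars); the left panel shows levels relative to the array's 75th percentile and the right panel quantile-scaled levels, each axis spanning the same range. The TBA arrays lie above the vehicle arrays of the same anesthetic on the left, from 6.25 to 6.41 under isoflurane, and overlap them on the right.

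Under CO2-O2, 67 subunits were higher with TBA and 8 lower, with a median change of 0.08 (51 higher and 24 lower, median 0.03, under quantile scaling; all features had medians of 0.02 and 0.00064, with 53.6% and 50.1% higher). None passed the limma test, for which 0.149% of all features did; 10 subunits had an unadjusted p under 0.05, all higher, against 8.71% of all features, and under quantile scaling 6, all higher, against 7.84%. In 37 of 75 subunits every TBA array exceeded every vehicle array, against 11.9% of all features, and in 1 every TBA array was lower, against 9.07%. Under quantile scaling these counts were 12 (16.0% of the subunits), against 10.6% of all features, and 0, against 10.5%.

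Under isoflurane, 69 subunits were higher with TBA and 6 lower, with a median of 0.14 (31 higher and 44 lower, median −0.02, under quantile scaling); of all features 53.5% and 52.1% were higher in the respective scalings. None passed the limma test, for which 0.395% of all features did; 33 had an unadjusted p under 0.05 and were higher, against 10.7% of all features, and 1 was lower, against 7.18%. Under quantile scaling 3 were higher, against 8.84%, and 3 lower, against 7.35%. In the first scaling the 34 in all fell to 19 without rat 1 of the TBA isoflurane group and to 20 without rat 3 of the vehicle isoflurane group. These fits had 1 array fewer and no share of all features is given for them. The fall can therefore not be read as particular to the subunits. Every TBA array exceeded every vehicle array in 34 subunits, against 14.2% of all features, and lay below in 1, against 9.72%. Under quantile scaling 7 were higher in this way, against 12.1%, and 15 were lower, against 10.4%. The 3 vehicle isoflurane rats were on 1 slide and the 3 TBA isoflurane rats on another, so slide and treatment cannot be told apart in this arm.

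Both arms together left 16 subunits in which TBA arrays were all higher under each anesthetic, against 3.09% of all features. They were Ndufa5, Ndufa6 and Ndufb9 of complex I, Uqcrb, Uqcrh and Uqcr11 of complex III, Cox4i1, Cox5b, Cox6a1, Cox6c, Cox6c-ps1 and Cox7a2 of complex IV, and Atp5f1e, Atp5pd, Atp5pf and Atp5if1 of complex V. No complex II member was among them. Under quantile scaling 2 remained, Ndufa5 and Cox6c-ps1, against 2.16% of all features. RefSeq promoters were in the table for 9 of the 16, and 5 of these 9 held 1 of the 3 motifs.

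**Figure D2:**
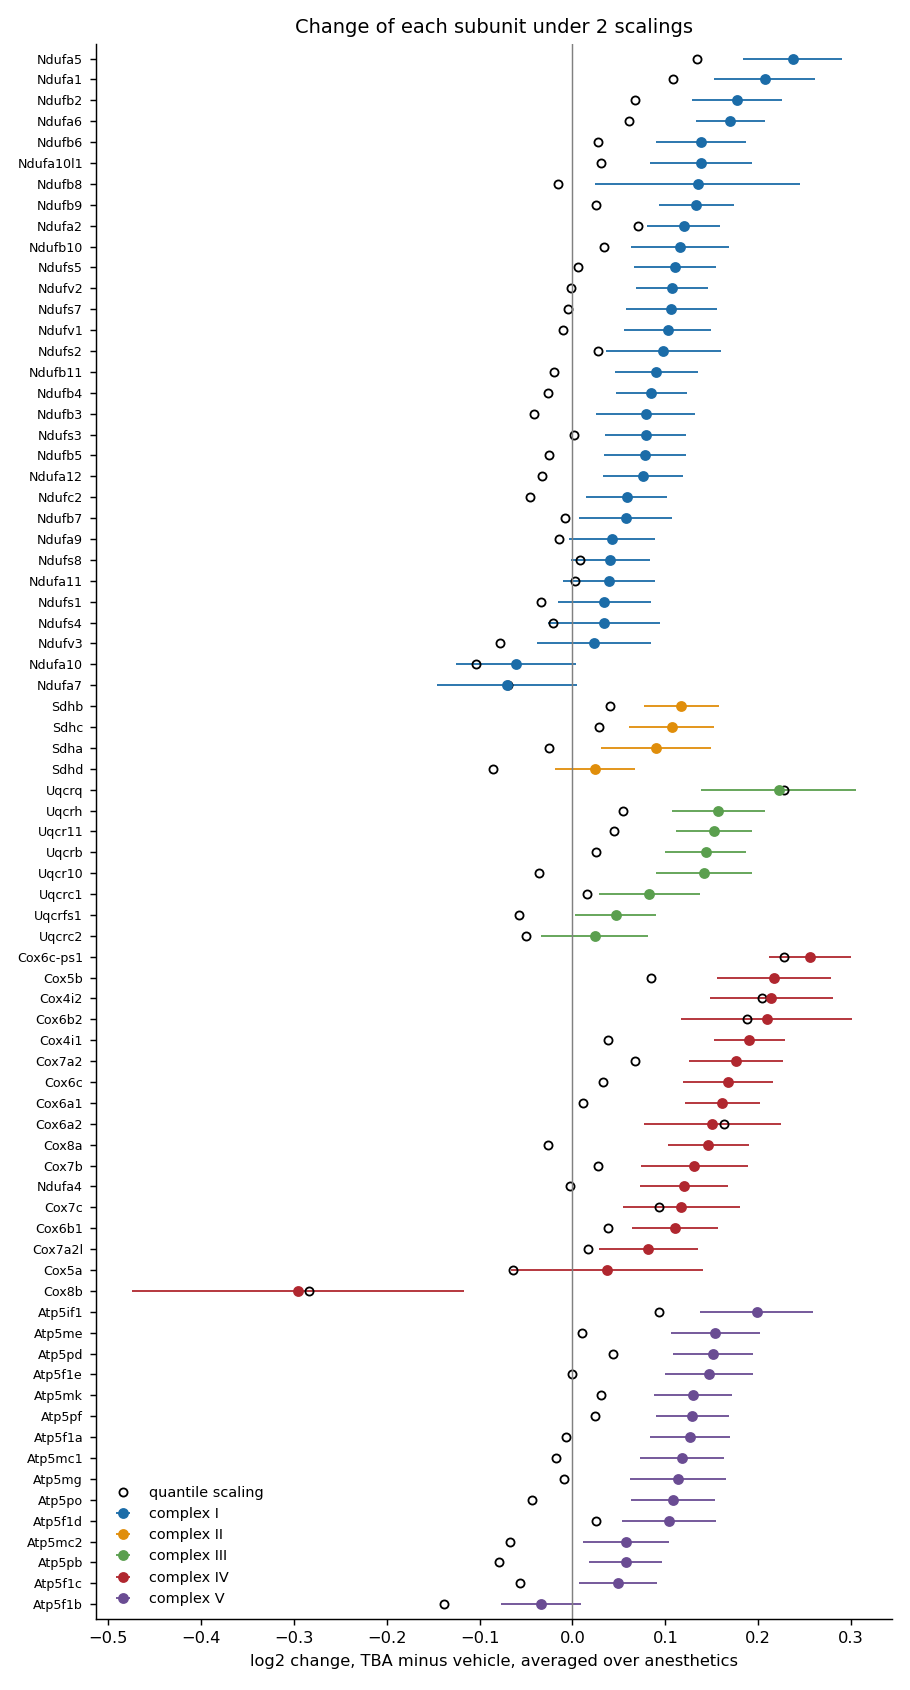
Log2 change of each of the 75 subunits, TBA minus vehicle averaged over anesthetics, grouped by complex: filled points with SE bars are 75th percentile scaling and open circles quantile scaling. Most filled points lie to the right of 0 (71 of 75) while open circles fall on both sides (41 higher, 34 lower); Cox8b is lowest at −0.30.

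Complex I is the largest complex of the chain, with 7 nuclear-encoded core subunits that carry the flavin and iron-sulfur clusters and many accessory subunits around them. Its 31 members had a median averaged change of 0.09, with 29 higher (53.8% of all features) and none called; 10 had an unadjusted p under 0.05 and were higher (12.2% of all features). Under quantile scaling the median was −0.0045 with 14 higher and 17 lower, and 1 had an unadjusted p under 0.05. The 7 core subunits were all higher (0.03 to 0.11; median 0.10) and 3 of them were under quantile scaling. Ndufv1, which binds the flavin that first accepts electrons from NADH, was 0.10 higher, and Ndufs1, which carries iron-sulfur clusters, 0.03. The 24 accessory members ranged from −0.07 to 0.24.

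Ndufa5, an accessory subunit of the arm that reaches into the matrix, showed the largest averaged change of complex I. Its levels were 6.81, 6.72 and 6.78 in vehicle CO2-O2 rats, 6.87, 6.90 and 6.97 in TBA CO2-O2 rats, 6.69, 6.70 and 6.65 in vehicle isoflurane rats, and 7.12, 7.08 and 6.84 in TBA isoflurane rats. The groups did not overlap in either arm, with the third TBA isoflurane rat lowest of its group. The averaged change was 0.24 (SE 0.053; limma adjusted p = 0.055), and 0.13 under quantile scaling (limma adjusted p = 0.17). Ndufa6, an accessory subunit near the ubiquinone site, was at 6.90, 6.86 and 6.90 against 7.07, 7.10 and 7.04 under CO2-O2, and at 6.88, 6.91 and 6.82 against 7.08, 7.02 and 6.99 under isoflurane. All TBA arrays were higher, the change was 0.17 (SE 0.037; limma adjusted p = 0.051), and under quantile scaling it was 0.06. Ndufa1, a small membrane subunit, was 0.21 higher (SE 0.054; limma adjusted p = 0.083).

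The lowest complex I change was in Ndufa7, with levels of 0.98, 0.96 and 0.84 in vehicle and 0.84, 0.77 and 0.68 in TBA rats under CO2-O2. The lowest vehicle and highest TBA arrays nearly met, and the isoflurane groups overlapped, at 0.56, 0.87 and 0.76 against 0.95, 0.60 and 0.71. Ndufa10 was −0.06 in the averaged comparison. Ndufb8, a membrane-arm subunit often used as an assembly marker, had 1 of the widest spreads among rats of a group (pooled SD 0.20) and a change of 0.14 (SE 0.11) that was −0.02 under quantile scaling.

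Complex II oxidises succinate and is also an enzyme of the citric acid cycle. All 4 members were higher in the averaged comparison (53.8% of all features), none passed the test, and 2 were higher under quantile scaling (50.6%). Sdha, the flavin-carrying catalytic subunit, changed by 0.09, Sdhb, the iron-sulfur subunit, by 0.12, Sdhc by 0.11 and Sdhd, the other membrane anchor, by 0.02. By its brightest probe, Sdhb differed between the arms. It was at 5.39, 5.37 and 5.40 against 5.66, 5.61 and 5.54 under CO2-O2, but at 5.47, 5.54 and 5.43 against 5.55, 5.52 and 5.44 under isoflurane. The CO2-O2 groups did not overlap and the isoflurane groups did, with a change of 0.21 (SE 0.057; limma adjusted p = 0.17) against 0.02 under isoflurane, and the difference of these changes was −0.19 (limma adjusted p = 0.40). The other Sdhb probe went the other way between the arms, with 0.06 under CO2-O2 and 0.12 under isoflurane.

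Complex III carries electrons from ubiquinol to cytochrome c. All 8 members were higher in both arms (53.6% of all features under CO2-O2 and 53.5% under isoflurane), with an averaged median of 0.14 and none called. In the average 5 had an unadjusted p under 0.05 and were higher (12.2% of all features). Under quantile scaling 5 were higher (50.6%) and 3 lower, and 1 of the higher ones had an unadjusted p under 0.05 (10.5%). The Rieske protein Uqcrfs1, which takes the first electron from ubiquinol, changed by 0.05, and the core proteins Uqcrc1 and Uqcrc2 by 0.08 and 0.02. Uqcrh, the hinge protein beside cytochrome c1, was at 6.47, 6.50 and 6.53 against 6.57, 6.61 and 6.60 under CO2-O2 and at 6.45, 6.51 and 6.36 against 6.74, 6.73 and 6.51 under isoflurane. Its TBA arrays were higher in each arm, by a narrow margin under isoflurane, and the averaged change was 0.16 (SE 0.050; limma adjusted p = 0.14).

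Uqcrq, a small subunit that binds ubiquinone, stood apart from the other complex III members. Its levels were −0.70, −0.84 and −0.77 in vehicle CO2-O2 rats and −0.15, −0.46 and −0.52 in TBA CO2-O2 rats, which did not overlap. The vehicle isoflurane rats, at −0.29, −0.49 and −0.31, were already close to the TBA isoflurane rats at −0.19, −0.23 and −0.52. The TBA change was 0.39 under CO2-O2 (SE 0.12; limma adjusted p = 0.20) and 0.05 under isoflurane, a difference with an adjusted p of 0.46, and the value under CO2-O2 was the same under quantile scaling. Uqcrb, the ubiquinone-binding subunit with 4 probes, was 0.14 higher by its brightest probe, but its probes ranged from −0.01 to 0.14.

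Complex IV reduces oxygen to water, and several of its nuclear-encoded subunits exist as tissue forms. Of 17 members 16 were higher in the averaged comparison (53.8% of all features), with a median of 0.15. Of these, 12 had an unadjusted p under 0.05 (12.2% of all features) and 2 were called (1.38%). Under quantile scaling 13 were higher (50.6% of all features), 3 with an unadjusted p under 0.05 (10.5%), and the median was 0.04. Under isoflurane 14 of 17 were higher with quantile scaling, against 9 of 31 in complex I and 4 of 15 in complex V; whether the complexes differed was not tested.

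Cox4i1, the usual form of the subunit that tunes the enzyme to ATP, was called. Its levels were 7.69, 7.70 and 7.72 in vehicle CO2-O2 rats and 7.77, 7.80 and 7.82 in TBA CO2-O2 rats. Under isoflurane they were 7.57, 7.63 and 7.59 in vehicle and 7.91, 7.94 and 7.81 in TBA rats. The groups did not overlap in either arm, and the vehicle isoflurane rats were lowest of all 12. The averaged change was 0.19 (SE 0.038; limma adjusted p = 0.042), from 0.09 under CO2-O2 and 0.29 under isoflurane (limma adjusted p = 0.060 for the latter), and its other probe gave 0.19. Under quantile scaling the change was 0.04 (limma adjusted p = 0.62), the vehicle and TBA ranges overlapped in both arms, and the call was lost. Leaving out any 1 of 10 of the 12 arrays also lost it; it held without the third TBA CO2-O2 or the third TBA isoflurane rat. The paralog Cox4i2, a form known for use at low oxygen, was at 2.11, 2.01 and 2.06 against 2.45, 2.48 and 2.10 under CO2-O2 and at 2.29, 2.35 and 2.27 against 2.45, 2.48 and 2.40 under isoflurane. It was 0.21 higher (SE 0.066; limma adjusted p = 0.13) and 0.20 under quantile scaling, and its isoflurane groups did not overlap.

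Cox6c-ps1 is a transcribed pseudogene of the subunit Cox6c in RefSeq. Its levels were 3.15, 3.13 and 3.16 in vehicle CO2-O2 rats and 3.36, 3.31 and 3.34 in TBA CO2-O2 rats. They were 3.07, 3.21 and 3.20 in vehicle isoflurane rats and 3.54, 3.53 and 3.38 in TBA isoflurane rats, so every TBA array was above every vehicle array of either arm. The averaged change was 0.26 (SE 0.044, limma adjusted p = 0.029) and 0.23 under quantile scaling (limma adjusted p = 0.034). It was the only member of the list called in both scalings. Its call was lost without any 1 of 10 of the 12 arrays, with the same exceptions as for Cox4i1. Its 2 probes gave alike averages (0.26 and 0.27) but differed by arm, with 0.19 and 0.51 under CO2-O2 and 0.32 and 0.03 under isoflurane. A probe for a pseudogene may also bind transcripts of its parent gene, which was not tested, and Cox6c itself was at 7.60, 7.61 and 7.59 against 7.65, 7.66 and 7.82 under CO2-O2 and at 7.40, 7.53 and 7.48 against 7.77, 7.71 and 7.60 under isoflurane. Cox6c was 0.17 higher (limma adjusted p = 0.11) and 0.03 higher under quantile scaling.

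Among the other complex IV subunits, Cox5b, a matrix-side regulatory subunit, was 0.22 higher (SE 0.061, limma adjusted p = 0.099), Cox6a1 0.16, Cox7a2 0.18 and Cox8a 0.15, none of them called. Under quantile scaling the vehicle and TBA arrays of each of these overlapped in both arms. Cox8a was then at 17.797, 17.733 and 17.855 in vehicle and 17.741, 17.716 and 17.741 in TBA rats under CO2-O2. Under isoflurane it was at 17.644, 17.716 and 17.701 against 17.741, 17.690 and 17.661. Cox5a, which binds thyroid hormone, was 0.04 with a wide spread (pooled SD 0.19). Cox7a2l, which joins complexes III and IV in supercomplexes, was −0.05 under CO2-O2 and 0.22 under isoflurane by its brightest probe. Its other probe gave 0.0053 under CO2-O2 and 0.048 under isoflurane. Ndufa4, found in complex IV despite its name, was 0.02 and 0.22.

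The muscle forms behaved less evenly. Cox8b had the most negative averaged change of the 75, with levels of −1.06, −0.996 and −1.15 in vehicle CO2-O2 rats and −0.96, −1.55 and −2.07 in TBA CO2-O2 rats. It was at −1.16, −1.29 and −1.18 in vehicle isoflurane rats and −1.09, −1.78 and −1.17 in TBA isoflurane rats. Both TBA groups were wider than those of any other subunit (SD 0.56 and 0.38, n = 3), the vehicle groups overlapped them, and the averaged change was −0.30 (SE 0.18; limma adjusted p = 0.41). Cox6a2, the heart and skeletal muscle form of Cox6a1, was at −1.69, −1.82 and −1.84 against −1.45, −1.24 and −1.66 under CO2-O2 and at −1.31, −1.47 and −1.33 against −1.49, −1.39 and −1.33 under isoflurane. Its CO2-O2 groups did not overlap, its isoflurane groups did, and its 3 probes gave averaged changes from 0.0020 to 0.35. This difference between the arms was that of its brightest probe. The probe with the largest averaged change gave 0.38 under CO2-O2 and 0.32 under isoflurane. Of 12 listed muscle markers 8 were kept; their summed level relative to the 75th percentile was 3.31 to 3.40 in vehicle CO2-O2, 3.40 to 4.87 in TBA CO2-O2, 4.10 to 4.80 in vehicle isoflurane and 3.20 to 4.14 in TBA isoflurane rats. Their part in the changes of the muscle forms was not tested.

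Complex V makes ATP in its F1 head, a ring of alternating alpha and beta subunits, driven by a rotor of c subunits in the membrane. All 15 members were higher under CO2-O2 (53.6% of all features) and 14 of 15 under isoflurane (53.5%). Their averaged median was 0.12 and none was called. Under quantile scaling 7 were higher (50.6% of all features) and 8 lower in the average. Atp5mc1 and Atp5mc2, which encode the same mature c subunit, changed by 0.12 and 0.06. Atp5if1, the inhibitor that blocks ATP hydrolysis when the gradient fails, was at 6.29, 6.32 and 6.29 against 6.34, 6.36 and 6.45 under CO2-O2 and at 6.01, 6.24 and 6.04 against 6.45, 6.53 and 6.25 under isoflurane. Its groups did not overlap in either arm and its change was 0.20 (SE 0.061; limma adjusted p = 0.12), or 0.09 under quantile scaling.

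By their brightest probes, the alpha and beta subunits of the F1 head moved differently under isoflurane. Atp5f1b, the catalytic beta subunit, was at 5.87, 5.82 and 5.85 in vehicle and 5.92, 5.90 and 5.99 in TBA rats under CO2-O2. Under isoflurane it was at 6.08, 6.10 and 6.15 in vehicle and 6.05, 5.87 and 5.94 in TBA rats. The TBA arrays were thus all higher under CO2-O2 and all lower under isoflurane, by 0.09 (SE 0.061; limma adjusted p = 0.53) and −0.16 (SE 0.061; limma adjusted p = 0.22). No other subunit had this pattern, which 0.922% of all features showed; under quantile scaling Sdhb had it and Atp5f1b did not, against 0.956%. The difference between the changes was −0.25 (SE 0.086; limma adjusted p = 0.32) and −0.35 under quantile scaling (limma adjusted p = 0.23), where the CO2-O2 groups overlapped. Atp5f1a, the alpha subunit, was at 8.88, 8.82 and 8.88 against 8.85, 8.84 and 8.92 under CO2-O2, which overlapped, and at 8.70, 8.76 and 8.74 against 9.08, 8.90 and 8.93 under isoflurane, which did not. Its changes were 0.02 and 0.24 (limma adjusted p = 0.37 for the difference), and 0.01 under isoflurane with quantile scaling. The other Atp5f1a probe gave 0.07 under CO2-O2 and 0.05 under isoflurane, without this difference between the arms.

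**Figure D3:**
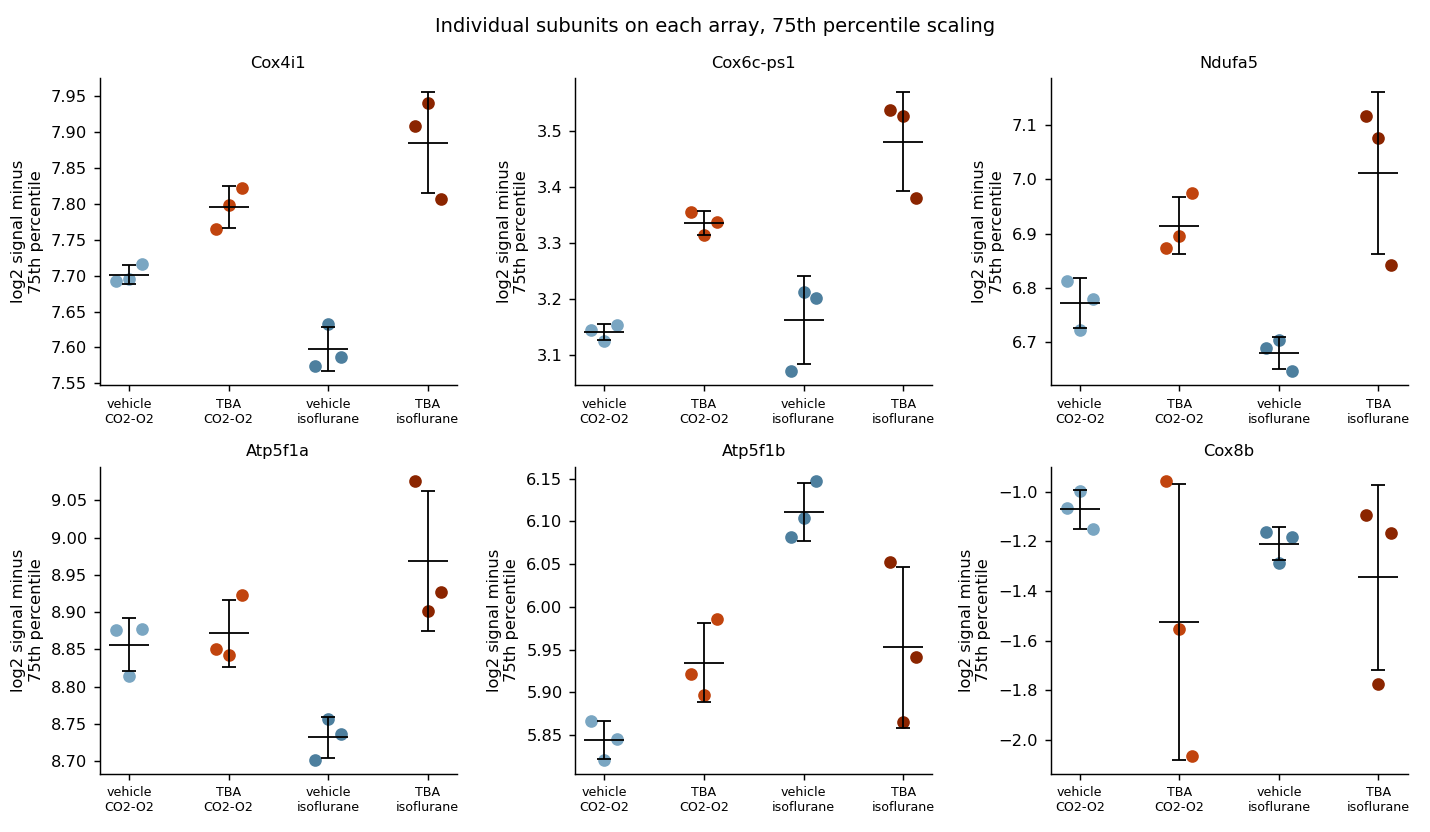
Levels of 6 subunits on each array (points, log2 signal minus the array's 75th percentile), with the mean and SD of each group of 3 rats (bars); each panel has its own axis. Cox4i1, Cox6c-ps1 and Ndufa5 are higher with TBA in both arms, Atp5f1b is higher under CO2-O2 and lower under isoflurane, and Cox8b has SDs of 0.56 and 0.38 in the TBA groups.

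The interaction of TBA with the anesthetic called no subunit and none of the 29603 features (0%) by limma; 7 subunits had an unadjusted p under 0.05, 4 with a positive difference (isoflurane minus CO2-O2), against 5.76% of all features, and 3 with a negative one, against 6.34%. Under quantile scaling 0 were positive, against 5.68%, and 6 negative, against 5.98%. Its median over the subunits was 0.06, with 54 higher and 21 lower, and −0.06 with 25 higher and 50 lower under quantile scaling; of all features 50.8% and 51.8% were higher. By the brightest probe of each, the most negative were Cox6a2 (−0.36), Uqcrq (−0.34) and Atp5f1b (−0.25), and the most positive Cox8b (0.32, SE 0.36). Another Cox6a2 probe gave 0.38 under CO2-O2 and 0.32 under isoflurane, without a difference of that size.

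**Figure D4:**
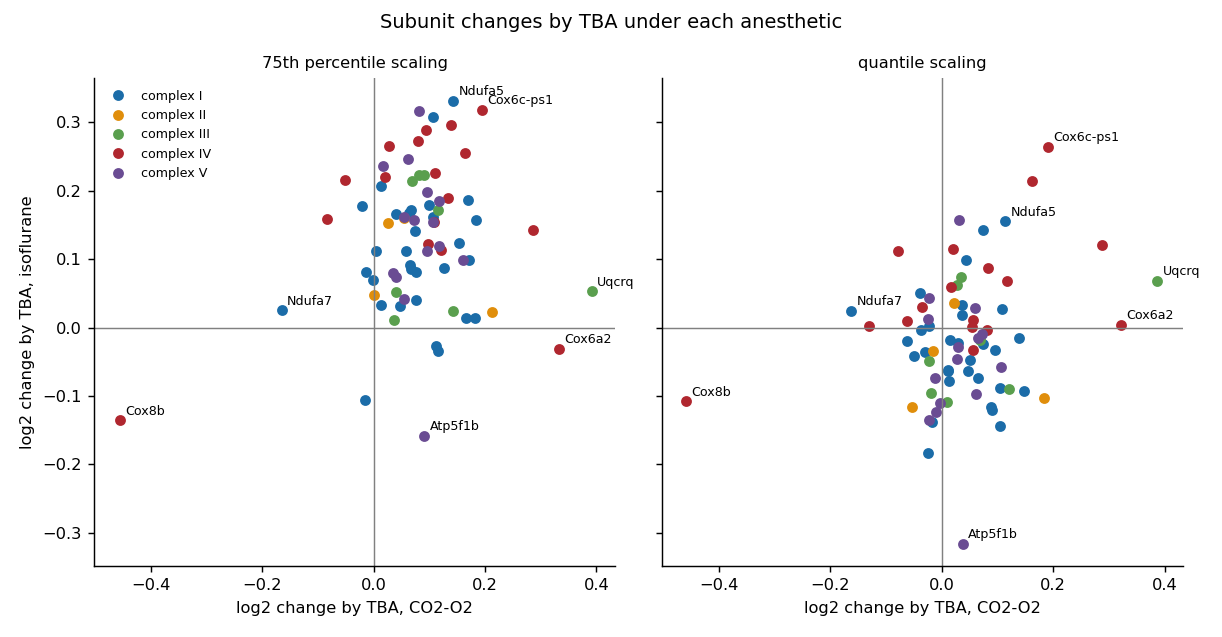
Log2 change by TBA under CO2-O2 (x axis) and under isoflurane (y axis) for each of the 75 subunits, coloured by complex, with 75th percentile scaling on the left and quantile scaling on the right. Most points lie at the upper right on the left; on the right the cloud is lower, with 31 of 75 above 0 on the y axis, and Atp5f1b is the lowest at −0.32.

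The gas used at the kill was compared in rats of the same treatment. In vehicle rats 24 subunits were higher under isoflurane than under CO2-O2 and 51 lower, with a median of −0.03; quantile scaling gave 48 higher and 27 lower with a median of 0.04. Of all features 51.5% and 49.2% were higher. None passed the limma test, for which 0.105% of all features did, and an unadjusted p under 0.05 was reached by 7 higher subunits, against 9.87%, and 4 lower ones, against 8.79%. Every isoflurane array was higher in 12 subunits, against 14.9% of features, and lower in 14, against 14.2%, shares of 16.0% and 18.7% of the subunits. Under quantile scaling they were 19 (25.3%) and 8 (10.7%), each against 14.2% of features, and an unadjusted p under 0.05 was reached by 12 higher, against 9.45%, and 1 lower, against 9.03%. All vehicle CO2-O2 arrays were on slide 1, scanned on day 1, and all vehicle isoflurane arrays on slide 2, scanned on day 2. With scan day or slide as a fixed term the comparison had 36 higher and 39 lower, a median of −0.0023 and 2 subunits with an unadjusted p under 0.05. The share of all features with such a p is not given for that fit, so these 2 have no background here. Atp5f1b changed most in its complex, by 0.27 (SE 0.061; limma adjusted p = 0.092), and by 0.33 under quantile scaling (limma adjusted p = 0.058), with all isoflurane arrays higher. Cox6a2 (0.41; limma adjusted p = 0.11) and Uqcrq (0.41; limma adjusted p = 0.14) were likewise higher on all 3 arrays, and Ndufa4 (−0.21) was among the lowest.

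In TBA rats 54 subunits were higher under isoflurane and 21 lower, with a median of 0.03, and under quantile scaling 29 were higher and 46 lower; of all features 52.3% and 51.5% were higher. Without rat 1 of the TBA isoflurane group 38 were higher and 37 lower with a median of 0.0022, and without rat 3 of that group 65 were higher with a median of 0.068. None passed the limma test, for which 0.00676% of features did, and 1, a higher one, had an unadjusted p under 0.05, against 5.52%. All isoflurane arrays were higher in 2 subunits, against 7.89%, and lower in 0, against 7.24%. Under quantile scaling these were 1, against 7.88%, and 4, against 7.58%, and an unadjusted p under 0.05 was reached by 0 higher, against 5.62%, and 1 lower, against 5.41%. Averaged over treatments, 39 subunits were higher and 36 lower with a median of 0.0014, against 51.7% of features higher. None was called by limma, against 0.287% of features, and an unadjusted p under 0.05 was reached by 6 higher ones, against 9.52%, and 1 lower one, against 7.66%. Under quantile scaling these were 8, against 9.24%, and 1, against 8.25%. Uqcrq (0.24) and Cox6a2 (0.23) had the largest changes in this average, and Atp5f1b (0.14) the lowest adjusted p; the limma adjusted p-values were 0.20, 0.17 and 0.15.

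The rest of the mitochondrial programme was set beside the subunits through gene lists. Factors that assemble the complexes (42 tested) had a median averaged change of −0.01, with 19 higher and none called, and mitochondrial ribosomal proteins (66 tested), which make the mitochondrial-genome subunits, had a median of 0.0036 with none called. Under quantile scaling these medians were −0.027 and −0.037. Regulators of mitochondrial biogenesis (24 tested) had a median of 0.01 with 1 called higher (1.38% of all features were). It was Sirt3, a mitochondrial deacetylase, at 0.30 (SE 0.062, limma adjusted p = 0.044). The median of the 24 under quantile scaling was −0.0135. The regulators whose motifs were searched were not called, with averaged changes of 0.01 for Nrf1, −0.06 for Gabpa and 0.01 for Yy1. Ppargc1a, a coactivator that drives respiratory chain genes, was 0.30 higher under CO2-O2 (limma adjusted p = 0.14) and changed by −0.44 under isoflurane (limma adjusted p = 0.043; 0.052 under quantile scaling). With slide as a random block limma called 0 of the 29603 features under isoflurane, so this call was lost. The difference of its changes was −0.74 (SE 0.10; limma adjusted p = 0.12).

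Citric acid cycle enzymes (18 tested) had a median of 0.08 with 14 higher (53.8% of all features) and 2 called higher (1.38% of all features), Ogdh (0.18; limma adjusted p = 0.044) and Suclg1 (0.19; limma adjusted p = 0.048), neither called under quantile scaling, where the median was −0.014 with 8 higher. Electron carriers and ubiquinone synthesis genes (19 tested) had a median of 0.02 with 1 called higher (1.38% of all features were). It was Coq8a, a kinase-like protein needed for ubiquinone synthesis, at 0.44 (limma adjusted p = 0.046). Cycs, which encodes cytochrome c, was −0.30 under CO2-O2 and 0.16 under isoflurane, neither called. Mitochondrial carriers and channels (16 tested) had a median of 0.08 and none called. Under quantile scaling the medians of the electron carriers and of the mitochondrial carriers were both −0.011.

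Lists outside the mitochondrion were also read. The V-type ATPase (17 tested), a proton pump of other membranes, had a median of 0.09 with only Atp6v1f called higher (0.26; limma adjusted p = 0.043). The proteasome core (36 tested) had a median of 0.01 with only Psmd9 called higher (0.21; limma adjusted p = 0.041). Of all features 1.38% were called higher. Under quantile scaling Atp6v1f and Psmd9 were not called, nor were Sirt3 and Coq8a. The medians of the V-type ATPase and the proteasome core were 0.0093 and −0.036 in that scaling. Cytosolic ribosomal proteins (78 tested), whose probes were also bright, with a median rank at the 98.6th percentile, had a median of 0.06 with 71 higher (53.8% of all features) and none called. Their medians were −0.03 under CO2-O2 and 0.15 under isoflurane, against 0.08 and 0.14 for the subunits, and −0.08 and −0.03 under quantile scaling against 0.03 and −0.02. Probes of the other lists were dimmer, with median ranks from the 69.2th percentile (biogenesis regulators) to the 94.6th (mitochondrial carriers and channels). The part of probe brightness in the medians of the lists was not tested.

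**Figure D5:**
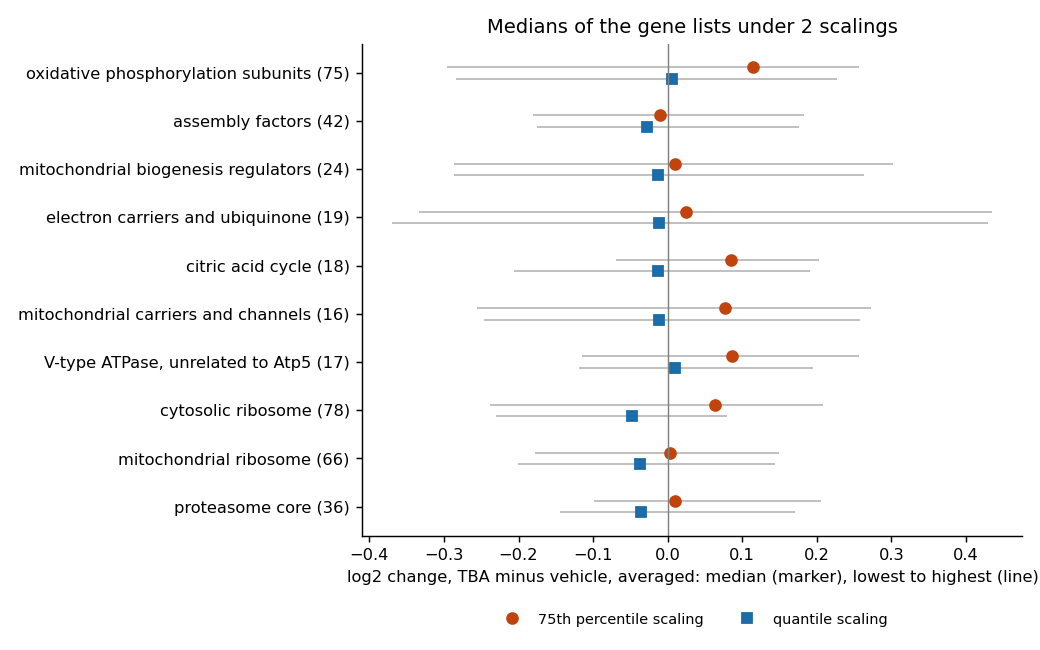
Median log2 change (markers) and lowest to highest member (lines) for the subunits and 9 other gene lists, TBA minus vehicle averaged over anesthetics, with the number of genes tested in brackets; circles are 75th percentile scaling and squares quantile scaling. The subunits have the highest median in the first scaling, 0.11, and a median of 0.0055 in the other. Probe brightness differed between the lists, with a median rank at the 97.7th percentile for the subunits and at 69.2 to 98.6 for the others.

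Cell composition was read through marker lists. All 12 markers of proximal tubule segments S1 and S2 were measured. In the averaged comparison 11 were higher with TBA (median 0.19), against 53.8% of all features. Under quantile scaling 10 were higher (median 0.08), against 50.6%. The summed level of the 12, in the first scaling, was 1110 to 1407 in vehicle CO2-O2 and 1507 to 1618 in TBA CO2-O2 rats. It was 1382 to 1478 in vehicle isoflurane and 1626 to 1783 in TBA isoflurane rats, without overlap in either arm. Their median change was 0.21 under CO2-O2 and 0.23 under isoflurane in that scaling. Under quantile scaling it was 0.16 and 0.01. In the averaged comparison Slc5a12 was called higher in both scalings (0.68, limma adjusted p = 0.0099, and 0.67, limma adjusted p = 0.015). Slc22a8 was called higher in the first scaling only (0.38, limma adjusted p = 0.029). Of all features 1.87% were called in the first scaling and 1.27% under quantile scaling, in either direction. The 10 markers of segment S3 were 5 higher and 5 lower (median 0.08; −0.08 under CO2-O2 and 0.32 under isoflurane), with summed levels of 757 to 816, 580 to 795, 527 to 619 and 518 to 826 in vehicle CO2-O2, TBA CO2-O2, vehicle isoflurane and TBA isoflurane rats. Of the 9 thick ascending limb markers kept, 8 were lower (median −0.17), with summed levels of 546 to 622, 479 to 539, 396 to 584 and 397 to 524 in the same order of groups. Under quantile scaling 8 were also lower (median −0.29). Cldn10 was called lower in both scalings (−0.40, limma adjusted p = 0.042, and −0.42, limma adjusted p = 0.038). The 7 red blood cell markers kept summed to 851 to 893, 707 to 1068, 544 to 679 and 649 to 937. The part of these in the subunits' changes was not tested, and in whole cortex fewer cells of a type and less RNA per cell cannot be told apart.

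The 10 genes outside the list whose levels over the 12 arrays were most like the subunits' median had Pearson r of 0.91 to 0.96, a description over arrays that share their scaling. The closest was Hspe1, a mitochondrial chaperonin, at 0.955, followed by Serf2, Ubqln1, Fau, Morf4l1, Park7, Celf1, Scamp1, Tmpo and Arfgap2.

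Slide and probe bear on these values. The 3 vehicle rats killed under CO2-O2 shared slide 1 with 1 TBA rat of that arm, and this TBA rat was above the vehicle mean in 64 of 75 subunits, with a median of 0.10 (50 of 75 and 0.040 under quantile scaling); the 2 TBA CO2-O2 rats on slide 2 gave 0.07 and 62 of 75 against the same vehicle rats. Of 38 subunits with more than 1 probe kept, 35 had probes of the same sign in the averaged comparison, and Cox6b2, Ndufv3 and Uqcrb did not. RefSeq lists 99 pseudogenes under the symbols searched, and 35 of the 75 subunits have at least 1, so a probe's signal may include a copy; Atp5mg has 8 and Ndufb4 has 7.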

How the data were processed

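Scanner files of 12 one-colour Agilent arrays were read; per the file headers and the submitters' processing notes they were made with Agilent Feature Extraction (10.7). The deposited intensity (gProcessedSignal) is background-subtracted by that software, per the file headers. The submitters' series table was an alternative. Its deposited values are, when set against the scanner files, a ratio of signal to the array's 75th percentile, which the authors do not state, and each column matches another replicate of its group. A probe was kept if well above background on all 3 arrays of a group, and the brightest kept probe stood for a gene. Signals were scaled to the array's 75th percentile, log2 transformed and fitted with limma 3.58.1 (R 4.3.3), 1 mean per group, with Benjamini-Hochberg adjustment over 29603 features at a threshold of 0.05. The fit was tested on simulated data. The 7 comparisons set TBA against vehicle and isoflurane against CO2-O2 within each arm and averaged, and tested their interaction. Alternatives were other scalings, filters, probe summaries, slide, scan day, spread models and leaving out each array. The number of arrays limits precision. Subunits were named where called, where a fixed list of main subunits or the extremes of a complex held them, and where probes or rats differed most; Ndufa1 and Cox6c were added after their values were seen. Members and lists were chosen with earlier results of these data known.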

Additional observations from a re-analysis of the deposited data

Results flagged for a closer look

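The response of Atp5f1b, the catalytic beta subunit of the ATP synthase, differed between the anesthetics in direction. TBA minus vehicle was 0.09071 (log2) under CO2-O2, with all 3 TBA arrays higher, and −0.1579 under isoflurane, with all 3 lower. This pattern was shown by 0.922% of all features. Under quantile scaling the CO2-O2 groups overlapped. The vehicle and TBA isoflurane rats were on different slides, so slide and treatment cannot be told apart in that arm. The interaction, −0.25 (SE 0.086), did not pass the limma test (adjusted p = 0.32), and the result rests on 1 probe. Groups of 3 arrays were too small for an outlier test.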

How the results depend on the processing

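Of the counts called and subunit medians in the 7 comparisons, 320 values under alternatives stayed near the reported ones and 32 moved. Part of the 320 could not move, so their number does not measure stability. No probe was saturated, so leaving out saturated probes changed nothing. The submitters' table has the same scaling as the main fit. Leaving out an array outside a comparison left the median of that comparison as it was. Quantile scaling gave medians of −0.018 for TBA under isoflurane, 0.0055 for TBA averaged over anesthetics, −0.062 for the interaction and 0.038 for isoflurane in vehicle rats, and 1 subunit called in the averaged TBA comparison. Median scaling gave 2 called under isoflurane, where it called 307 of 29603 features, and an interaction median of 0.12. With normexp background correction 5 were called under isoflurane, 6 in the average and 1 for isoflurane in vehicle rats. With a trended, robust spread these were 8, 12 and 1. Calls over all 29603 features rose as well. They were 1328, 975 and 843 with normexp and 606, 1091 and 281 with the trended, robust spread, in the same order. The averaged count of 2 became 0 with no filter, 4 with probes well above background on all 12 arrays, 1 with the mean of a gene's probes, 1 with slide as a random block and 0 with scan day as a fixed term. In that order these settings called 63 of 45877 features, 757 of 26646, and 503, 323 and 136 of 29603. With the replicate number as a block the averaged count was 0, and 166 of 29603 features were called. Deviations of same-numbered rats correlated at −0.133 to 0.133, above 0.1 in 3 of 18 pairs. With 3 arrays in a group this cannot settle whether the numbers pair the rats. Leaving out 1 array gave 0 to 4 called in the average, 4 without rat 3 of the TBA CO2-O2 or of the TBA isoflurane group, and 0 to 1 under CO2-O2, 1 without rat 3 of the TBA CO2-O2 group. Over all 29603 features, the fit without rat 3 of the TBA CO2-O2 group called 996 in the average and 171 under CO2-O2. The fit without rat 3 of the TBA isoflurane group called 408 in the average. With 1 array left out, the averaged median ranged from 0.095 to 0.13. Cox4i1 ranged from 0.18 to 0.21 (limma adjusted p = 0.045 to 0.11) and Cox6c-ps1 from 0.23 to 0.28 (0.033 to 0.076). The cause of these moves was not tested. Slide as a fixed term could be fitted only for TBA under CO2-O2 and isoflurane in vehicle rats. Scan day 2 alone, chosen after seeing the data, gave a median of 0.14 for TBA under isoflurane.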
